A study of Mus musculus with 12 samples.

Results

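A set of 10 genes of fibroblast growth factor (FGF) signalling were followed here, the 6 ligand genes Fgf3, Fgf4, Fgf8, Fgf10, Fgf15 and Fgf17 and the 4 receptor genes Fgfr1, Fgfr2, Fgfr3 and Fgfr4. They are a chosen part of the family, listed by name and not by a measured threshold, and are 10 of the 55401 genes in the count tables. RNA-seq compared totipotent potential stem (TPS) cells with extended pluripotent stem (EPS) cells of the mouse. There were 3 lines of each cell type, and every line was sequenced as 2 technical replicates, which gave 12 libraries. Which strain and sex the sequenced lines came from is not given in the sources used here, although the study took the embryos for embryo-derived TPS lines from the strain B6-Tg (C57BL/6-tdTomato).

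TPS cells are totipotent-like cells kept in the CPEC condition, named in the labels as VCED medium. It combines CD1530, an agonist of RARγ, with inhibitors of histone deacetylases (VPA), of DOT1L (EPZ004777) and of GSK3 (CHIR). EPS cells were kept in LCDM medium. According to the labels, both cell types were grown on feeder cells, so RNA of feeder fibroblasts can be in every library. TPS lines could be made both out of EPS cells and out of 2-cell embryos, and which origin the sequenced lines had is not given in the sources used here. In these mixed cultures, fewer cells of a type and less RNA per cell cannot be told apart.

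FGF ligands are secreted proteins that bind receptor tyrosine kinases together with heparan sulfate on the cell surface. The paired receptors phosphorylate the adaptor FRS2, which recruits GRB2 and SOS and switches on RAS and the kinases RAF, MEK and ERK. In the mouse blastocyst, FGF4 from the epiblast precursors acts on FGFR1 and FGFR2 and directs inner cell mass cells to primitive endoderm, and it sustains trophoblast stem cells in culture.

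Total counts per library ranged from 13676051 to 21821707. Summed over both technical replicates they ranged from 29877215 to 38466294 per line, and all 10 genes were measured deeply enough to be tested. Levels are given as CPM, the counts scaled to the total of each line and to its TMM factor, which corrects for RNA composition. Differences were tested with edgeR's quasi-likelihood test over 17468 genes with Benjamini-Hochberg adjustment at 0.05, with the line as the replicate (n = 3 per group). The p-values measure the spread between these lines, and nothing in the labels says how independent the lines are. Technical replicates differed by more than counting noise in all 6 lines (chi-square over its degrees of freedom from 2.58 to 22.3, the highest in EPS line 3). All 5 genes of a list of 2-cell stage markers (the Zscan4 genes among them) were higher in the TPS lines, with a summed level of 110 to 150 CPM against 0.0588 to 0.0853 CPM in the EPS lines, and 6 of 10 pluripotency markers were lower.

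Of the 10 FGF genes, 3 were higher in TPS lines (Fgf8, Fgfr1 and Fgfr2), 3 were lower (Fgf4, Fgf17 and Fgf10) and 4 did not pass the test (Fgf3, Fgf15, Fgfr3 and Fgfr4). Among all 17468 genes tested, 14.4% were called higher and 7.34% lower. Of the 6 ligands, 3 were lower and 1 higher, whereas 2 of the 4 receptors were higher and 0 lower by edgeR's test, with 0 lower also by DESeq2 and at an unadjusted p under 0.05. The 6 called genes were also those whose lines did not overlap between the groups, 3 with every TPS line above every EPS line and 3 with every TPS line below. Over all tested genes those shares were 23.5% and 19.1%.

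**Figure D1:**
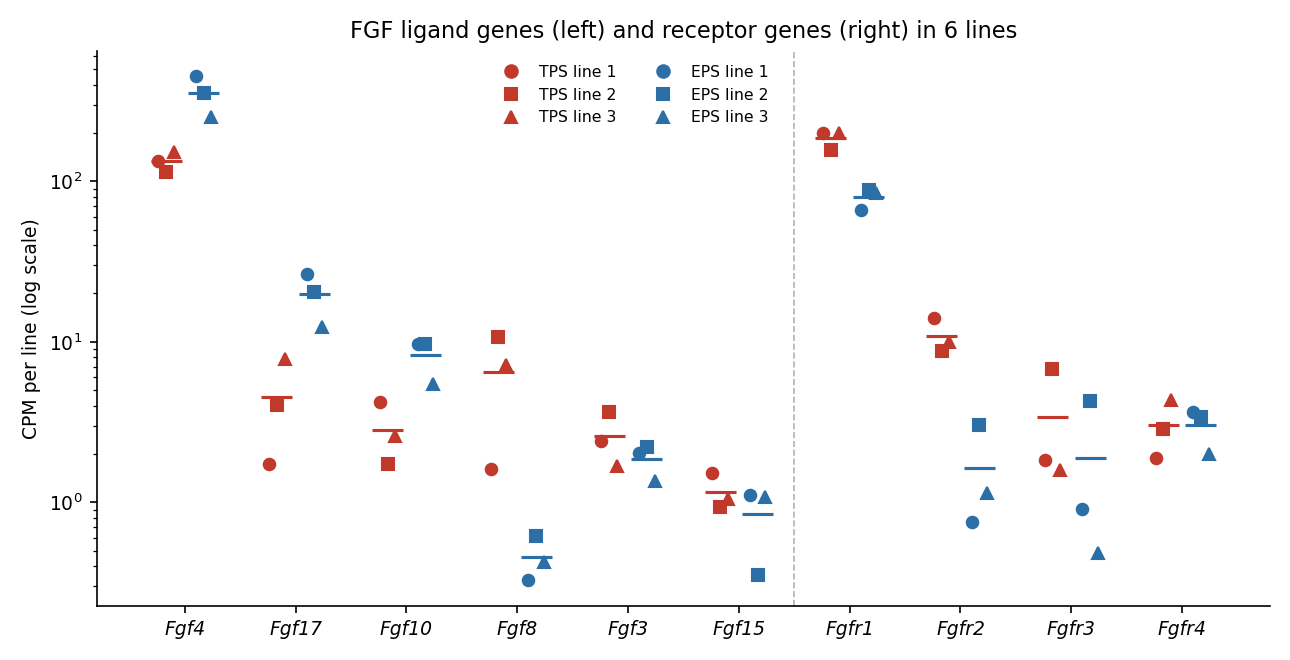
Level of each FGF gene in CPM (log axis) in the 3 TPS lines (red) and the 3 EPS lines (blue), with a marker shape per line number and a horizontal bar at the mean. Fgf4 lies between 115 and 452 CPM and Fgfr1 between 66.2 and 199 CPM, the groups are apart for 6 genes, and Fgf8 spans 1.62 to 10.7 CPM among the TPS lines.

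Promoter sequences are shown for the 3 called genes that had an entry in the RefSeq promoter table of GRCm38.p6 (Fgf4, Fgf10 and Fgfr2). Each runs 5′ to 3′ on the gene's own strand from 250 bases before to 50 bases after the start site. Capitals mark matches to the GC box GGGCGG or the CCAAT box on either strand. The Fgf4 window is chr7:144861136-144861435 on the plus strand, the Fgf10 window chr13:118714449-118714748 on the plus strand and the Fgfr2 window chr7:130266759-130267058 on the minus strand.
Fgf4: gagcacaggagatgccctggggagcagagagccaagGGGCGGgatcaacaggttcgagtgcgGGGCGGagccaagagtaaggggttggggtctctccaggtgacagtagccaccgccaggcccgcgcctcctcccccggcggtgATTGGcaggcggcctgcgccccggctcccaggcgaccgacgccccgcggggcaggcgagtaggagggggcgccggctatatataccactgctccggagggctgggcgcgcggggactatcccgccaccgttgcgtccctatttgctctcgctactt
Fgf10: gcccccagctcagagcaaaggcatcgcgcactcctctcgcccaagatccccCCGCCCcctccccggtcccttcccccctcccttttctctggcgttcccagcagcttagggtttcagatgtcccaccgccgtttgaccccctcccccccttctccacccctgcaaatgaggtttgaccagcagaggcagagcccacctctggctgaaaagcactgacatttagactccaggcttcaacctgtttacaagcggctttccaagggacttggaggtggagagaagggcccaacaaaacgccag
Fgfr2: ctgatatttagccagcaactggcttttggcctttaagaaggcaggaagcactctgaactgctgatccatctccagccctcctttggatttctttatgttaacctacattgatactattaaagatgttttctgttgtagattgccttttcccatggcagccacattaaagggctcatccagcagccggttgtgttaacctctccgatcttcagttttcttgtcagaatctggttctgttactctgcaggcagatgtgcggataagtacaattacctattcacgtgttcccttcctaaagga
The windows differ in composition. The Fgf4 window is 69.7% G and C with 28 CpG dinucleotides, the Fgf10 window 60.7% with 10, and the Fgfr2 window 43.7% with 4, beside a median of 52.7% and 7 CpG over 32817 promoters. The Fgf4 window holds 2 GC boxes and 1 CCAAT box, the Fgf10 window 1 GC box, and the Fgfr2 window neither motif. Of all promoters of this length, 35.6% hold GGGCGG and 37.4% hold CCAAT. The exact string AGGTCA, 1 form of the half-site of nuclear receptors, was not found on either strand in these 3 windows. It was also not found in those of Fgf3, Fgfr3 and Fgfr4, and 16.3% of all promoters hold it. The exact string TATAAA was absent from the same windows and is in 13.6% of all promoters. Similar strings were not searched, such as the tatatata in the Fgf4 window or forms of the half-site that differ by 1 base. The search therefore does not show whether these windows hold a half-site for the target of CD1530, a nuclear receptor. These matches describe letters in a window and say nothing about binding.

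Fgf4, the ligand made by epiblast and embryonic stem cells, was the ligand with the highest level per kilobase of exon in both groups and fell in TPS lines. Its level was 134, 115 and 152 CPM in TPS lines 1, 2 and 3. In EPS lines 1, 2 and 3 it was 452, 354 and 252 CPM. Every TPS line lay below every EPS line, and the EPS lines were the more spread, with a standard deviation (SD) of 100.2 CPM against 18.8 CPM. The mean was 2.64-fold lower, with a log2 fold change of -1.40 (SE 0.23, 95% confidence interval -1.92 to -0.87, edgeR adjusted p = 0.00701). The call held with each of the 6 lines left out in turn, when the adjusted p reached at most 0.0254. Each library held at least 2106 counts of Fgf4, and its level differed by at most 1.08-fold between technical replicates.

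Fgf4 sits on chromosome 7 in a cluster with Fgf3 and Fgf15, and RefSeq places it at chr7:144861386-144865245 on the plus strand (GRCm38.p6). The start of Fgf3 (chr7:144838612-144843348) lies 22.8 kb before it and that of Fgf15 (chr7:144896532-144900953) 35.1 kb after it. GENCODE M21 lists 14 genes with a start within 250 kb of the start of Fgf4, of which 6 were tested and 1 was called, Fgf4 itself. Ccnd1, the cyclin D1 gene 78.4 kb away, was measured at 126 ± 20.1 CPM in TPS and 133 ± 33.4 CPM in EPS lines (SD, n = 3), with a log2 fold change of -0.08 (SE 0.21, edgeR adjusted p = 0.818). The closest tested neighbours Fgf3 and Fgf15 had positive log2 fold changes of 0.47 (SE 0.40) and 0.46 (SE 0.51), neither called. The remaining tested neighbours were Ano1 and LTO1, at 1.00 (SE 0.58) and 0.05 (SE 0.29). Whether the change of Fgf4 differs from that of its neighbours was not tested.

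Fgf17 and Fgf8 belong to a common ligand subfamily that acts in the primitive streak and in midbrain patterning, and they moved in opposite directions. Fgf17 (chr14:70636203-70642268, minus strand) was measured at 1.72, 4.06 and 7.84 CPM in TPS lines 1 to 3. Its EPS levels were 26.4, 20.5 and 12.4 CPM. The groups did not overlap, but the highest TPS line and the lowest EPS line were only 4.53 CPM apart. The log2 fold change was -2.12 (SE 0.54, edgeR adjusted p = 0.0303), a 4.35-fold lower level. This call was lost without TPS line 2 (adjusted p = 0.0757), EPS line 1 (0.0829) or EPS line 2 (0.0729), with log2 fold changes between -2.11 and -1.88.

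Fgf8 (chr19:45736491-45742941, minus strand) was higher in TPS lines and rested on few counts in EPS lines. It was measured at 0.326, 0.618 and 0.427 CPM in EPS lines 1 to 3, from 4 to 15 counts per library. TPS lines reached 1.62, 10.7 and 7.17 CPM, from 31 to 222 counts per library. All TPS lines were above all EPS lines, and TPS line 1 stayed well below the other two. The log2 fold change of 3.82 (SE 0.71, 95% confidence interval 2.17 to 5.47, edgeR adjusted p = 0.0109) was the largest in size of the 10 genes, and with any 1 line left out it ranged from 3.25 to 4.28 with an adjusted p of at most 0.0423.

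The ratio of both genes therefore differed between the groups. Per kilobase of exon, the ratio of Fgf8 to Fgf17 was 1.18, 3.31 and 1.14 in TPS lines 1 to 3 and 0.0155, 0.0377 and 0.0431 in the EPS lines. On this scale Fgf8 exceeded Fgf17 in 3 of 3 TPS lines and in 0 of 3 EPS lines. In CPM, not divided by length, Fgf17 was slightly above Fgf8 in TPS lines 1 and 3.

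Fgf10, a ligand of mesenchyme that drives budding of lung and limb through FGFR2, was low in both groups and lower in TPS lines. It lies at chr13:118714699-118792573 on the plus strand. TPS lines held 4.22, 1.73 and 2.57 CPM. EPS lines held 9.66, 9.68 and 5.46 CPM, so the groups were apart by a gap of 1.25 CPM between TPS line 1 and EPS line 3. The log2 fold change was -1.54 (SE 0.41, edgeR adjusted p = 0.0348). It is the least stable of the 6 calls. Leaving out TPS line 2, TPS line 3, EPS line 1 or EPS line 2 gave adjusted p-values of 0.0757, 0.105, 0.0822 and 0.0861, with log2 fold changes between -1.48 and -1.28. Without EPS line 1, EPS line 2 or TPS line 2, the count of lowered FGF genes was thus 1, Fgf4.

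Fgf3, which acts in inner ear and tail development, ranged from 1.68 to 3.68 CPM in TPS and from 1.37 to 2.21 CPM in EPS lines. Its 95% confidence interval of the log2 fold change ran from -0.46 to 1.40 (edgeR adjusted p = 0.430). Fgf15, the mouse counterpart of the bile acid-responsive gut hormone FGF19, ranged from 0.932 to 1.52 CPM and from 0.353 to 1.11 CPM, with an interval from -0.71 to 1.64 (edgeR adjusted p = 0.547). The lines of both genes overlapped between the groups, and the intervals, which rest on the spread between 3 lines per group, do not exclude changes within those bounds. Of the exon bases of Fgf15, 24.9% also lie in the antisense gene Gm26793, which had 0 to 4 counts per line, and the library kit is not described as marking strand.

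Fgfr1, the main FGF receptor of the epiblast and of pluripotent cells and also a receptor of fibroblasts, rose in TPS lines. It has the highest level per kilobase of exon of the 4 receptor genes and lies at chr8:25518759-25575718 on the plus strand. TPS lines held 199, 157 and 198 CPM. In EPS lines the level was 66.2, 88.2 and 84.8 CPM, so the lowest TPS line was still 1.79 times the highest EPS line. The mean was 2.32-fold higher, with a log2 fold change of 1.21 (SE 0.16, 95% confidence interval 0.83 to 1.60, edgeR adjusted p = 0.00409). Fgfr1 had the smallest standard error of the family, and with any 1 line left out the adjusted p was at most 0.0174.

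Fgfr2, the receptor known from primitive endoderm, trophectoderm and epithelia, was also higher in TPS lines. It was measured at 14.1, 8.70 and 9.97 CPM in TPS lines 1 to 3. EPS lines held 0.750, 3.03 and 1.14 CPM, with EPS line 2 the highest. No EPS line reached the TPS range, and the log2 fold change was 2.73 (SE 0.54, 95% confidence interval 1.49 to 3.98, edgeR adjusted p = 0.0128), a 6.65-fold difference. The call held without each line in turn (adjusted p of at most 0.0402). RefSeq places the gene at chr7:130162451-130266808 on the minus strand, whereas one M21 transcript extends it to base 133123350 and shares 3.04% of the exon bases with Ctbp2.

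Fgfr3, a receptor of growth plate cartilage and neural tissue, was highest in the line numbered 2 of both groups. It reached 6.81 CPM in TPS line 2 and 4.29 CPM in EPS line 2. The other lines held 1.85 and 1.59 CPM in TPS and 0.914 and 0.484 CPM in EPS. The log2 fold change of 0.85 (SE 0.88, 95% confidence interval -1.20 to 2.90, edgeR adjusted p = 0.526) was not called and became -0.15 without TPS line 2. Technical replicates of EPS lines 1 and 3 differed 3.17-fold and 2.68-fold for this gene, and 13.9% of its exon bases are shared with a gene on the opposite strand. Fgfr4, the receptor of liver and muscle progenitors, ranged from 1.90 to 4.32 CPM in TPS lines and from 1.99 to 3.65 CPM in EPS lines. The means were 3.02 ± 1.22 and 3.02 ± 0.898 CPM (SD, n = 3), and the 95% confidence interval of the log2 fold change ran from -0.95 to 0.95 (edgeR adjusted p = 1.00).

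**Figure D2:**
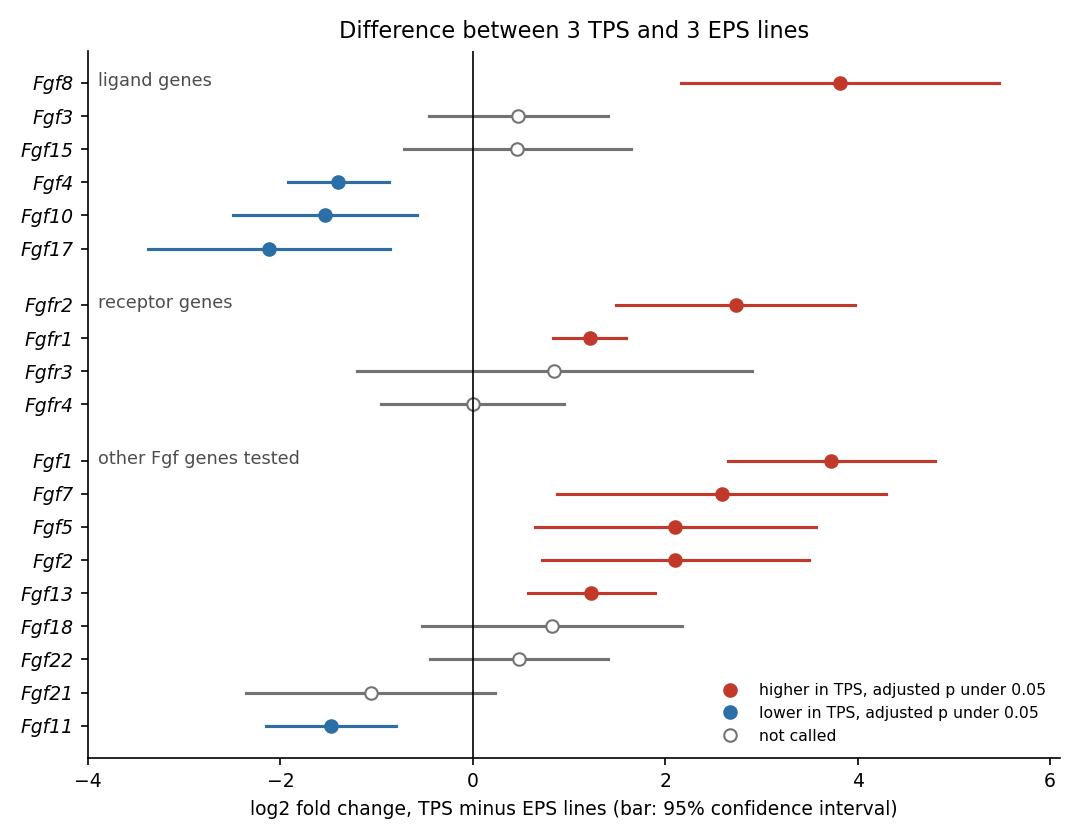
Log2 fold change (TPS minus EPS lines) with its 95% confidence interval for the 10 FGF genes and the 9 other Fgf genes that were tested; filled red points were called higher, filled blue points lower, open grey points were not called. Fgf8 lies at 3.82 and Fgf17 at -2.12, the ends of the range of the 10 genes, and Fgfr1 at 1.21 has their narrowest interval.

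For an order of levels among the 10 genes, CPM were divided by kilobases of exon. In TPS lines Fgf4 came first at 41.8 ± 5.88 CPM per kilobase, Fgfr1 the second at 18.7 ± 2.41 and Fgf8 the third at 4.82 ± 3.40 (SD, n = 3). The lines of Fgf4, Fgfr1 and Fgf8 did not overlap, and from Fgf8 downward every gene overlapped with the next. In EPS lines Fgf4 stood at 110 ± 31.4 CPM per kilobase, Fgf17 at 11.7 ± 4.16 and Fgfr1 at 8.07 ± 1.20, with overlap between Fgf17 and Fgfr1. Fgf10 followed at 1.80 ± 0.528, apart from its neighbours on both sides. Fgfr2 was the last of the 10 in EPS lines at 0.159 ± 0.118. Using the longest transcript as the length instead placed Fgfr1 before Fgf17 in EPS lines (15.8 against 11.7) and left Fgf4 first in both groups. In TPS lines the means of Fgf4 and Fgfr1 were then closer, at 44.1 and 36.7. The separation of Fgf4 and Fgfr1 in TPS lines therefore depends on the length used. In CPM, not divided by length, Fgfr1 was above Fgf4 in every TPS line and below it in every EPS line.

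Summed per kilobase, the 6 ligands were lower and the 4 receptors higher in TPS lines. Ligand sums were 46.5, 48.6 and 59.3 CPM per kilobase in TPS lines and 161, 127 and 88.5 in EPS lines. Receptor sums were 22.3, 18.5 and 22.5 in TPS lines and 7.94, 10.8 and 9.32 in EPS lines. Neither sum overlapped between the groups, and the sums are given as a description, with no test.

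Within the ligand sum, Fgf4 made up 88.2 ± 0.708% in EPS and 81.5 ± 8.03% in TPS lines (SD, n = 3), and these shares overlapped, since TPS line 1 had the highest of all at 90.0%. Over all 18 secreted Fgf genes, Fgf4 made up 75.0%, 69.0% and 70.0% in TPS lines and 87.2%, 86.1% and 86.2% in EPS lines, without overlap, and Fgf7 held 11.6%, 2.25% and 8.11% of that sum in TPS lines and at most 1.34% in EPS lines. Of the sum over the 6 ligands, Fgf8 held 2.58%, 16.4% and 8.96% in TPS lines 1 to 3 and at most 0.361% in EPS lines. In the same sum of 6 ligands, Fgf17 held 4.99 ± 2.82% in TPS and 9.19 ± 0.792% in EPS lines. Among the receptors, Fgfr1 held 88.5 ± 2.26% in TPS and 86.4 ± 4.94% in EPS lines, which overlapped, while Fgfr2 went from 1.61 ± 0.974% in EPS to 4.99 ± 1.00% in TPS lines without overlap. The share of Fgfr4 was lower in TPS lines, at 4.05 ± 1.53% against 9.32 ± 3.50% in EPS lines, also without overlap.

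**Figure D3:**
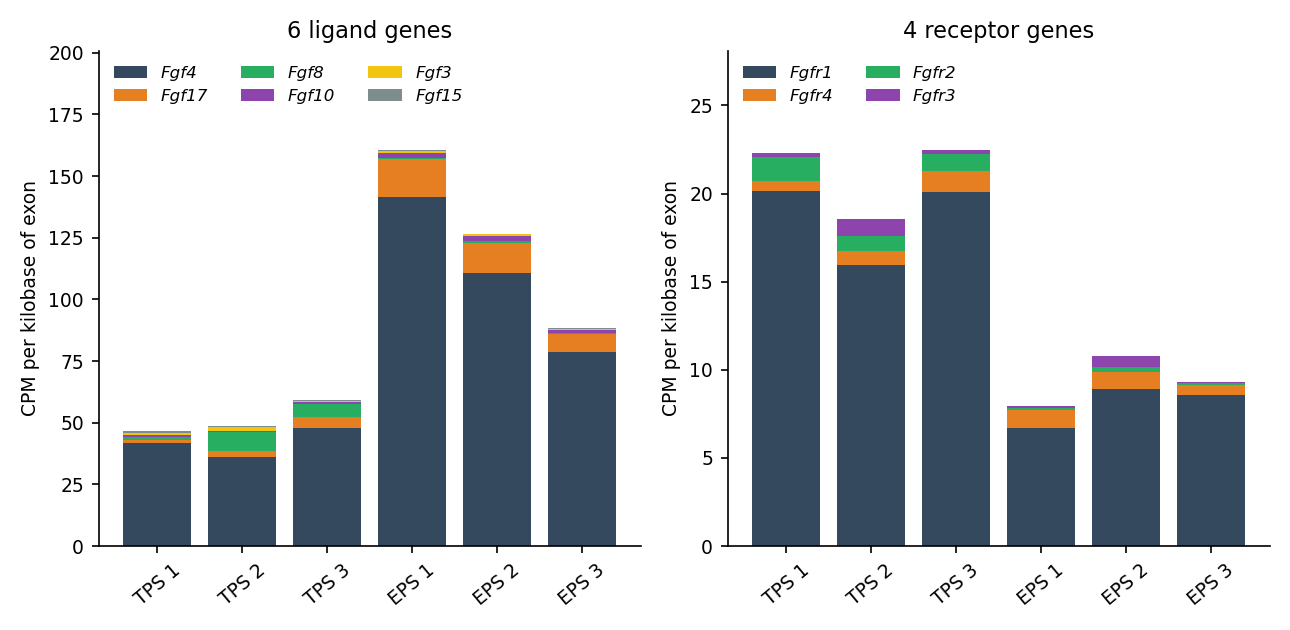
Stacked levels in CPM per kilobase of exon for the 6 ligand genes (left) and the 4 receptor genes (right), 1 bar per line, on separate linear axes that start at 0. The ligand bars of TPS lines (46.5 to 59.3) are below those of EPS lines (88.5 to 161), the receptor bars are above, and Fgf8 is visible in TPS lines 2 and 3.

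The wider pathway was described with lists of other genes by role, 81 genes in all, of which 73 were tested. Of these, 19 were higher in TPS lines (26.0% beside 14.4% over all genes), 5 were lower and 49 did not pass the test. Their median log2 fold change was 0.21, against -0.00376 over all tested genes. Only 7 of the 24 calls held with every line left out in turn, namely Fgf1, Hs2st1, Gpc1, Sdc4, Frs3, Ksr1 and Dusp5.

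Among 16 other Fgf genes, 9 were tested, 5 were higher and 1 lower. Over all 22 Fgf genes, 15 were tested, 6 were higher and 4 lower. Fgf1, a ligand that binds all FGF receptors, was measured at 2.22, 1.55 and 2.32 CPM in TPS lines and 0.163, 0.0882 and 0.199 CPM in EPS lines (log2 fold change 3.73, SE 0.46, edgeR adjusted p = 0.00325). Fgf7, the keratinocyte growth factor that mesenchyme secretes for FGFR2 of epithelia, held 20.98, 3.81 and 17.97 CPM in TPS lines and 0.848, 2.26 and 3.98 CPM in EPS lines. TPS line 2 lay inside the EPS range of Fgf7, and the call (log2 fold change 2.59, edgeR adjusted p = 0.0424) held in 2 of 6 fits with a line left out. The ratio of Fgf7 to Fgf10 per kilobase was 7.05, 3.11 and 9.90 in TPS lines and 0.124, 0.332 and 1.03 in EPS lines. Fgf2 (2.10), Fgf5, a post-implantation epiblast gene (2.11), and Fgf13 (1.23) were also called higher. Fgf11, which like Fgf13 encodes an intracellular homologue that is not secreted, was lower (log2 fold change -1.47, SE 0.29, edgeR adjusted p = 0.0131). Without EPS line 1 or TPS line 1 the count of higher genes was 1, without EPS line 2, EPS line 3 or TPS line 3 it was 2, and Fgf11 was not called without TPS line 3 (adjusted p = 0.0501).

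Of 8 co-receptor and binding protein genes, 7 were tested and 4 were higher. They were Fgfrl1, a receptor-like protein without a kinase domain (log2 fold change 1.06), Klb, the β-Klotho co-receptor (3.07), the carrier gene Fgfbp3 (1.37) and Flrt1, which binds FGF receptors (1.86). These 4 calls were weak, since leaving out EPS line 1 or TPS line 3 left 0, EPS line 2 or TPS line 2 left 1, and TPS line 1 left 2. Of 18 heparan sulfate genes, all tested, 5 were higher and 1 lower. Hs2st1, a sulfotransferase that makes a site used by FGFs, was 80.1 ± 4.08 CPM in TPS and 46.1 ± 2.39 CPM in EPS lines (SD, n = 3; log2 fold change 0.80, edgeR adjusted p = 0.00616). The glypican Gpc1 rose (1.30), and the syndecans Sdc1 (0.60) and Sdc3 (1.51) and the sulfatase Sulf1 (0.99) were called higher. In contrast, the syndecan Sdc4 fell (-1.02, edgeR adjusted p = 0.00951). With a line left out, the call held in 0 of 6 fits for Sdc1, 1 of 6 for Sdc3 and 3 of 6 for Sulf1. Levels of Sdc3 and Sulf1 are also compared with fibroblast markers below. Without EPS line 1, EPS line 2 or TPS line 1 the higher count was 2, and without TPS line 3 it was 3.

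Downstream of the receptors, the shares called were read beside the 14.4% higher and 7.34% lower of all genes. Among 11 adaptor genes, Gab2 (1.52) and Sos2 (1.43) were higher and Frs3 (-1.51) was lower, while Frs2, the main FGF receptor substrate, was at 0.26 (SE 0.14, edgeR adjusted p = 0.208). The higher count was 1 without EPS line 1, EPS line 2 or TPS line 2 and 0 without TPS line 1. Of 13 genes of the RAS-ERK cascade, the scaffold gene Ksr1 (1.83, SE 0.18, edgeR adjusted p = 0.00183) and Rps6ka3 (0.60) were higher, and Nras (-0.54) and Rps6ka1 (-0.55) were lower. Of those 4, Ksr1 alone held in each fit with 1 line left out, and Nras and Rps6ka1 were not called without EPS line 1 or any 1 of the TPS lines. The lower count was also 0 without composition factors, with technical replicate 1 alone and with the line number as a replicate block.

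Of 15 targets and feedback genes of ERK, which reflect pathway output in many cells, 1 was higher and 0 were lower by edgeR's test, with 3 higher and 1 lower (Fos) at an unadjusted p under 0.05 and 2 higher and 1 lower by DESeq2. The median log2 fold change of the list was 0.02. The called gene was Dusp5, a nuclear ERK phosphatase, at 17.3, 22.6 and 21.05 CPM in TPS lines and 5.06, 10.4 and 6.94 CPM in EPS lines (log2 fold change 1.44, SE 0.29, edgeR adjusted p = 0.0145). Dusp6, Spry2, Spry4 and Etv4 were not called, at 0.19 (SE 0.25), -0.03 (SE 0.41), -0.53 (SE 0.41) and 0.30 (SE 0.40). Spred3 (1.099, SE 0.358, edgeR adjusted p = 0.064) and Spred2 (0.534, SE 0.218, edgeR adjusted p = 0.118) were also not called. In both, every TPS line was above every EPS line. In 0 genes of this list was every TPS line below every EPS line. Etv5 held 444, 180 and 538 CPM in TPS lines and 512, 505 and 252 CPM in EPS lines, and its lines overlapped. The immediate early gene Fos was uneven among EPS lines, from 8.81 to 380 CPM, and was not called (edgeR adjusted p = 0.0676). Without EPS line 3 the higher count was 2, and without EPS line 1 it was 1 higher and 1 lower.

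**Figure D4:**
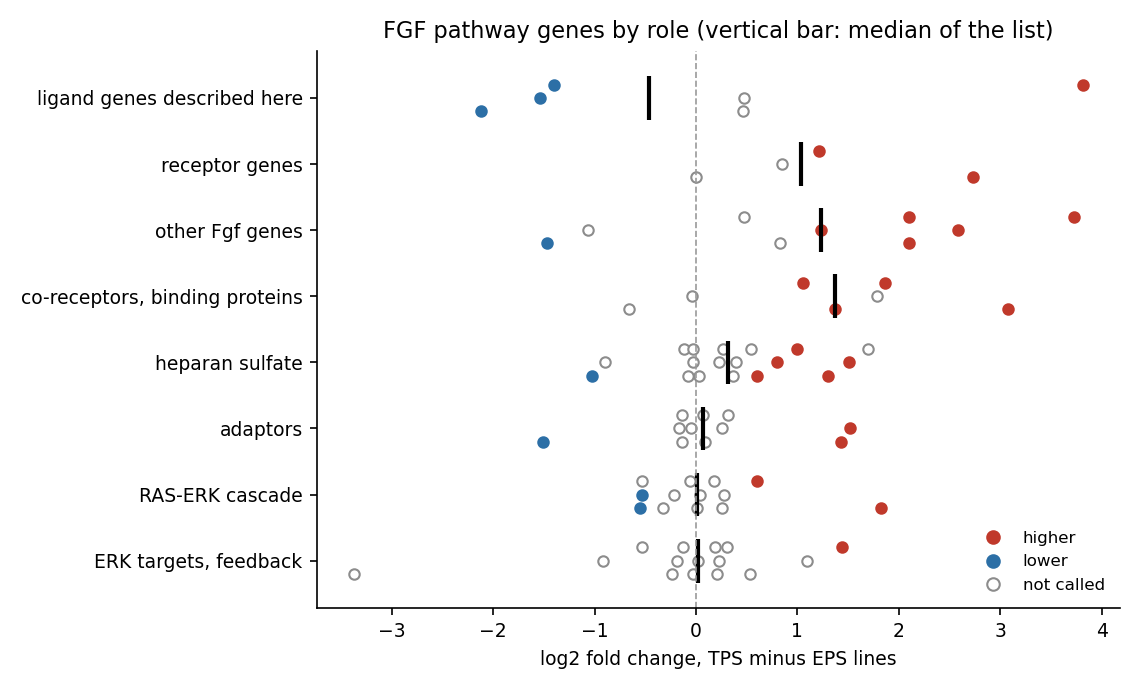
Log2 fold change (TPS minus EPS lines) of every tested gene by role in the FGF pathway, 1 point per gene, with a vertical bar at the median of each list. Medians run from -0.47 for the 6 ligand genes described here to 1.37 for co-receptors and binding proteins, and those of the RAS-ERK cascade and of the ERK targets are 0.01 and 0.02.

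Markers of other cell types moved with the groups. All 17 genes of a fibroblast list had positive log2 fold changes (median 2.04) and 11 were called higher. Their summed level was 6441, 3567 and 3764 CPM in TPS lines and 346, 1341 and 1437 CPM in EPS lines. Col1a1 and Pdgfrb were above 0 in every line, and Fap was at 0 in EPS line 1 only. The count of called fibroblast genes was 4 without EPS line 2, 5 without TPS line 1 and 6 without TPS line 3. Fgfr1, Fgfr2, Fgf2, Fgf7, Sdc3 and Sulf1 were highest in TPS line 1, which had the highest fibroblast sum. For Fgfr1 this was by a small margin (199 against 198 CPM in TPS line 3). The same genes were lowest in EPS line 1, which had the lowest sum. Fgf2, Fgf7, Sdc3 and Sulf1 had the line order of the sum in both groups, whereas Fgf1 and Fgf5 were highest in TPS line 3. Fgf10, also a mesenchymal ligand, was lower in TPS than in EPS lines. It had the line order of the fibroblast sum among the TPS lines but not among the EPS lines. Among the TPS lines it was highest in line 1, where the sum was highest, and among the EPS lines it was lowest in line 3, where the sum was highest. The part of fibroblast RNA in the levels of Fgfr1, Fgfr2, Fgf10, Fgf1, Fgf2, Fgf5, Fgf7, Sdc3 and Sulf1 was not tested.

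The pluripotency list, in which all 10 log2 fold changes were negative, summed to 3104 to 3750 CPM in TPS and 6435 to 8184 CPM in EPS lines. Fgf4 was also lower in the TPS lines and had the line order of this sum among the EPS lines. Among the TPS lines both were lowest in line 2, but Fgf4 was highest in line 3 and the sum in line 1. Of 10 primitive streak markers 9 were tested and 3 were higher, Wnt3, Evx1 and Cdx1. Their sum was 41.7, 125 and 153 CPM in TPS lines and 29.1, 39.0 and 35.2 CPM in EPS lines, so TPS line 1 was the lowest TPS line in this sum as in Fgf8 and Fgf17. Cdx1 carried much of the sum. Without it the other 9 genes summed to 13.7, 43.9 and 52.9 CPM in TPS lines and 21.7, 30.7 and 23.6 CPM in EPS lines, with TPS line 1 below every EPS line. Gsc was lower in every TPS line than in any EPS line (log2 fold change -1.15) and Eomes was at -0.25, neither called. The streak count was 1 without EPS line 1, EPS line 2 or TPS line 3 and 6 without TPS line 1. It was 5 by DESeq2 and 5 without the filter on low counts. Of 9 primitive endoderm markers 5 were higher (Gata6, Sox17, Pdgfra, Cubn and Dab2) and 1 lower (Lama1), and Pdgfra is also a fibroblast gene. The higher count was 3 without EPS line 1 or EPS line 2. Of 8 tested trophectoderm markers 2 were higher (Cdx2 and Gata3) and 1 lower (Tead4), with 1 higher without EPS line 1 or EPS line 2, 4 without TPS line 1 and 0 without TPS line 2. The higher trophectoderm count was 5 by DESeq2, 4 without composition factors and 6 without the filter on low counts, each with 1 lower. Krt8 and Krt18 reached 243 and 198 CPM in TPS line 2 against at most 32.7 and 26.5 CPM in the other lines, and the same line had the highest Fgf8. The part of these cell states in the FGF levels was not tested.

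**Figure D5:**
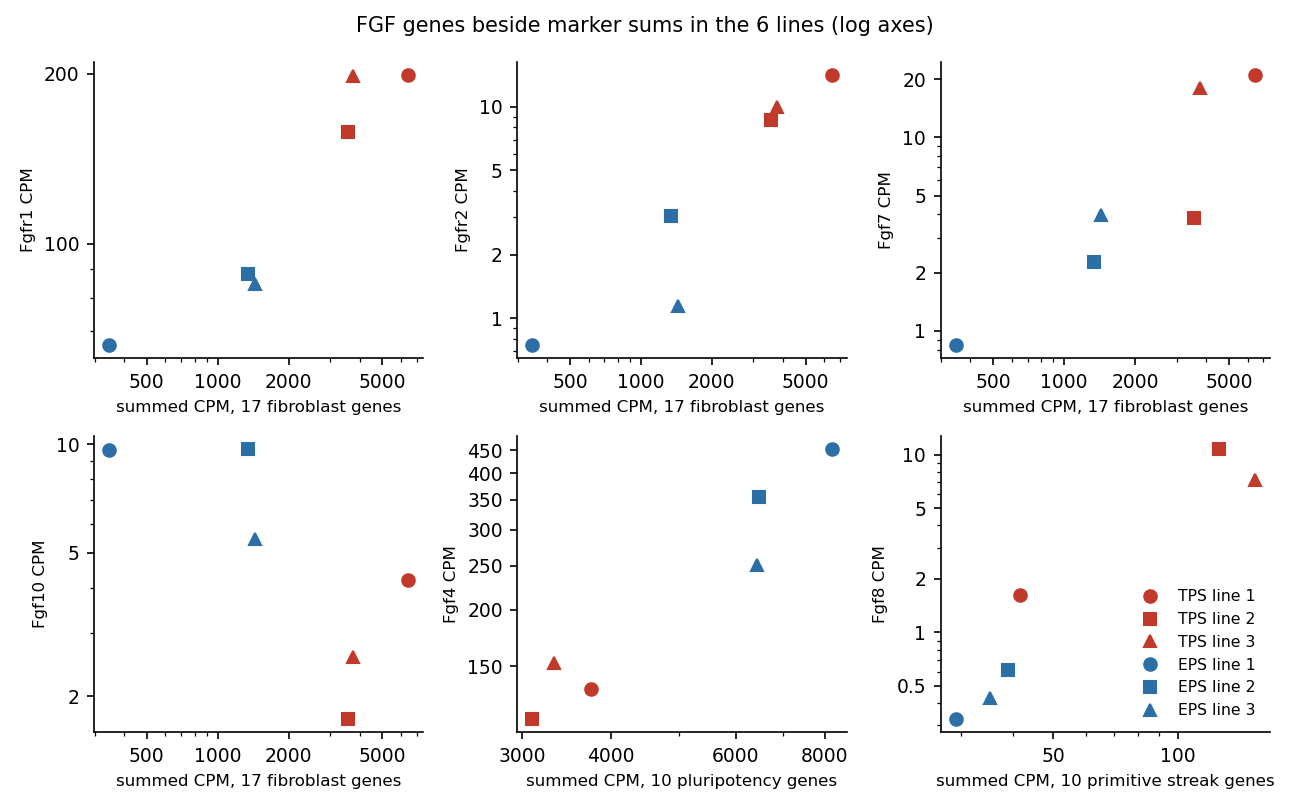
Level of 6 FGF genes in CPM against the summed CPM of a marker list in the same line, on log axes, with TPS lines in red and EPS lines in blue. Fgfr1, Fgfr2 and Fgf7 are lowest in EPS line 1, where the fibroblast sum is 346 CPM, Fgf10 is lower in every TPS line than in any EPS line and is highest among TPS lines but lowest among EPS lines in the line with the highest sum, Fgf4 is lower at the low pluripotency sums of TPS lines, and Fgf8 is highest in TPS lines 2 and 3, where the streak sums are 125 and 153 CPM.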

How the data were processed

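Raw gene counts of the 12 libraries were used as deposited. The authors trimmed reads (fastp 0.19.7 in the submitters' processing notes), mapped 2 × 100-base pairs from oligo(dT)-enriched RNA to GRCm38.p6 with STAR 2.7.3a and deposited counts per gene without normalization. The counting tool, annotation release, use of strand and handling of multimapping reads are not given in the sources used here. Identifiers were matched without version to GENCODE M21 (55141 of 55401). Groups, lines and technical replicates came from the labels. Counts were summed over the 2 technical replicates, and the lines were tested as 3 TPS against 3 EPS with the quasi-likelihood test of edgeR (edgeR 4.0.16, R 4.3.3, TMM, filterByExpr with 10 counts and 15 in total), tested on simulated data. Standard errors are the log2 fold change over the square root of F. Exon length is the union of annotated exons. DESeq2 1.42.0, other factors, no filter, single libraries, a block and leaving out lines were alternatives. By a search with blastn 2.17.0 (95% identity over 50% of the longest transcript), none of the 10 genes had a near-identical copy. The 10 genes and the lists were chosen with earlier results of these data known. The named genes are the 10, listed pathway and marker genes that passed the test or lead their list, and tested neighbours of Fgf4. Frs2, Dusp6, Spry2, Spry4, Etv4, Spred2, Spred3, Fos, Krt8, Krt18, Gsc and Eomes fall outside this rule and were named after their values were seen. Reads carry no molecular identifiers, so they are not independent molecules. Protein sequences were not used here. The values of 1 listed pathway gene are left out of the text.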

Additional observations from a re-analysis of the deposited data

Results flagged for a closer look

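In Fgf8, 1 library stood apart from the other 5 of its group. Fgf8 in EPS line 2, technical replicate 1, was 0.989 CPM (15 counts), whereas the other EPS libraries held 0.310 to 0.565 CPM (4 to 9 counts). Its gap to the nearest library, over the range of the group, was above Dixon's 95% critical value for 6 samples. Groups of 6 libraries were examined 20 times (10 genes in TPS and EPS), and chance flags about 1 in 20 groups of independent samples. The 6 libraries are 3 lines with 2 technical replicates each, so they are not independent and the chance rate here is not known. All TPS libraries of Fgf8 were above this value, the lowest at 1.38 CPM. With technical replicate 2 alone in every line, which leaves this library out, Fgf8 was still called higher.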

How the results depend on the processing

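Fgf4, Fgf8, Fgfr1 and Fgfr2 kept their direction and call under all 14 alternatives, and the count of FGF genes higher in TPS lines was 3 in each of them. The count lower ranged from 1 to 3 with a line left out. Under the line number as a replicate block it was 1, as Fgf10 (adjusted p = 0.0532) and Fgf17 (0.0726) were lost, and over all genes 1714 were higher and 721 lower. The labels do not say whether line numbers pair the lines. Correlations of deviations of same-numbered lines were 0.02, -0.12 and 0.04. By these values, 0 of 3 TPS lines correlated best with the EPS line of its own number. With 3 lines per group, such correlations cannot decide whether the lines are paired. Fgf10 also lost its call with technical replicate 1 alone (0.0667). Over all genes, 2509 were higher and 1282 lower, which makes 66.2% of calls higher. Without composition factors 2987 were higher and 745 lower (80.0% higher), with the median of all genes shifted to 0.14. With the 12 libraries as separate samples 4067 and 3610 were called. Leaving out a line gave 1617 to 2234 higher and 493 to 1047 lower. Uncalled values changed sign in Fgfr3 (-0.15 without TPS line 2, in a range up to 2.27 with a line left out) and in Fgfr4 (0.16 without composition factors, 0.020 with 12 libraries, 0.031 with technical replicate 2 alone, and -0.35 to 0.25 with a line left out). The cause of these shifts was not tested. Low counts limit the precision of Fgf8 in EPS lines (10 to 21 counts per line) and of Fgf15 (12 to 61), among others.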
